A study of Mus musculus with 2 samples.

Results

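The mouse counterparts of 10 genes at human Alzheimer's disease risk loci (*App*, *Sorl1*, *Bin1*, *Picalm*, *Cd2ap*, *Inpp5d*, *Plcg2*, *Abi3*, *Abca7* and *Adam10*) were taken by their symbols from the 32285 genes of a single-nucleus RNA-sequencing experiment on the hippocampus, and all 10 were in the matrices. For each of them, the cell class that expressed it was identified, and its level in tau transgenic mice without *Zbp1* was set over that in tau transgenic mice with *Zbp1*. The groups were PS19+/- Zbp1+/+ mice (PS19) and PS19+/- Zbp1-/- mice (PZKO), both male and aged 9 months. Both therefore carried the PS19 transgene for mutant human tau, and animals without it were not analysed here, so the values say nothing of the effect of the transgene itself. Hippocampi were pooled into 1 library per genotype. There was no replicate check and no test between genotypes could be made, and animals within a pool cannot be told apart in the counts.

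The PS19 library held 11469 nuclei and 116488513 unique molecular identifiers (UMIs), with a median of 5642 per nucleus, and the PZKO library held 10920 nuclei and 171167884 UMIs, with a median of 8342.5. After filters on quality and doublets, 9590 PS19 and 9307 PZKO nuclei were kept and were grouped into 36 clusters without use of the 10 genes. All but 6 of these clusters could be named from marker genes, which gave 11 classes with at least 50 nuclei in each library. In each of these classes every gene of the class's own marker list was detected in both libraries. *Zbp1* itself was counted with 92 UMIs in PS19 and 38 in PZKO over all nuclei kept, 0.913 and 0.250 CPM (counts scaled to 1000000 UMIs), a log2 ratio of -1.87 (95% interval -2.45 to -1.31). In microglia it had 48 and 20 UMIs. The labels do not say which part of the gene was deleted, so the remaining UMIs could lie outside it.

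Levels are given as CPM, scaled to all UMIs of a class in a library. A ratio is the log2 of the PZKO level over the PS19 level, followed by its 95% interval, which covers counting error only and not the spread between animals. A gene counted as past the fold when its log2 ratio reached 0.5 in either direction with at least 100 UMIs over both libraries.

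Most genes at Alzheimer risk loci act in a few processes. *App* encodes the precursor from which amyloid-beta is cut, and *Adam10* and *Sorl1* act on its cleavage and its sorting. *Bin1*, *Picalm* and *Cd2ap* encode adaptors of endocytosis that bend membranes, assemble clathrin or tie receptors to actin. *Inpp5d*, *Plcg2* and *Abi3* encode signalling and actin proteins of the immune system, which in the brain is mainly represented by microglia, and *Abca7* encodes a lipid transporter of the ABC family.

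The 10 genes differed in how many classes expressed them. *Inpp5d*, *Plcg2* and *Abi3* were concentrated in microglia, *Bin1* was highest in oligodendrocytes and next in microglia, *Picalm* was highest in microglia, and *Cd2ap* was highest in endothelial cells. *App* and *Adam10* were spread over all classes, with at least 193 and 78.3 CPM in each, and *Sorl1* was highest in ependymal cells. *Abca7* was low throughout, at no more than 54.2 CPM in any class. The 10 genes and 11 classes gave 110 pairs, of which 73 had at least 100 UMIs. In 67 of these 73 pairs the PZKO level was within the fold threshold of the PS19 level, in 3 it was past the fold on the higher side and in 3 on the lower side. The interval lay above 0 in 18 pairs and below 0 in 7. Over all 84512 pairs of a gene and a class measured, 3.57% were past the fold on the higher side and 7.39% on the lower, and the interval lay above 0 in 14.3% and below 0 in 20.4%.

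**Figure D1:**
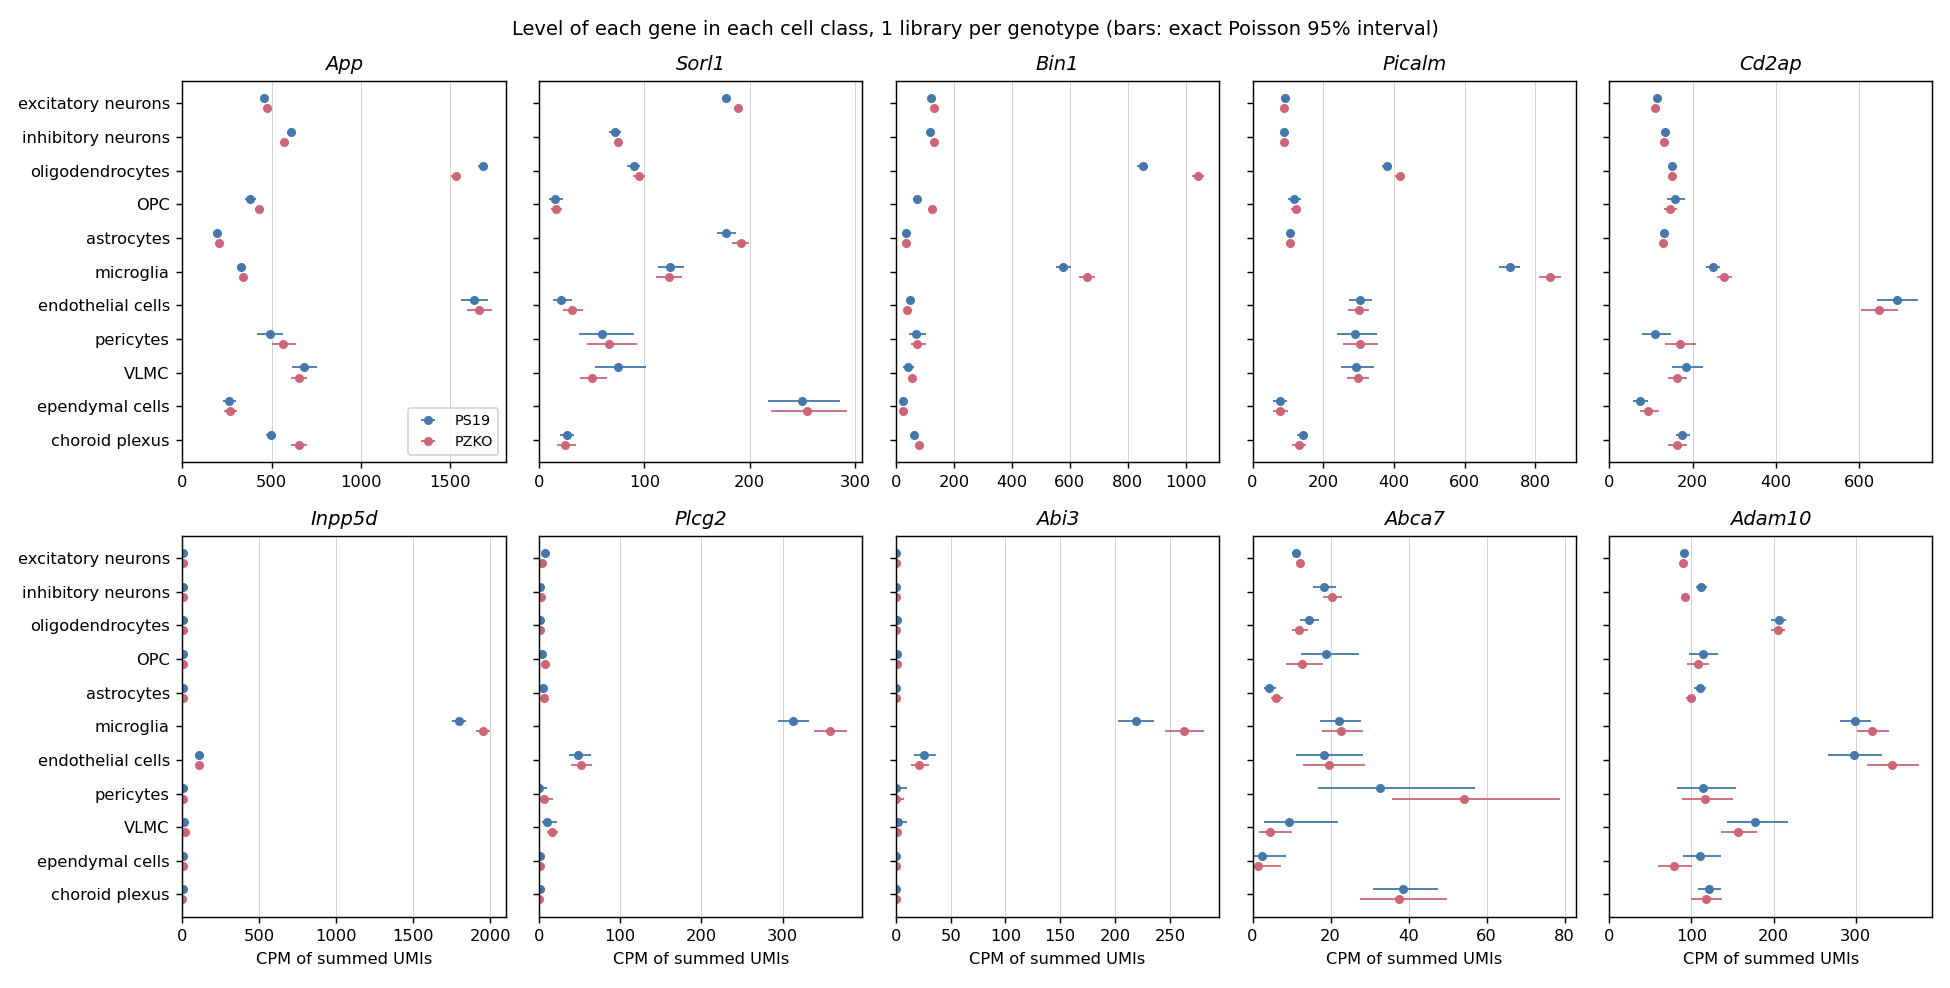
Level of each of the 10 genes in 11 cell classes (rows) as CPM of summed UMIs (horizontal axis, linear and set per gene), with PS19 in blue, PZKO in red and exact Poisson 95% intervals as bars. *Inpp5d*, *Plcg2* and *Abi3* stand out in microglia, at 1795, 313 and 219 CPM in PS19, while *App* reaches 193 CPM or more in every class.

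The sequences just before the transcription start are shown for 3 of the genes with their highest level in microglia, because GAGGAA is the core bound by PU.1, the transcription factor that defines the myeloid lineage. They are the 250 bases upstream of the start in the RefSeq table on GRCm38.p6, which holds such a sequence for 8 of the 10 genes, not for *Bin1* or *Abi3*. They lie at chr1:87620062-87620311 for *Inpp5d*, chr8:117498025-117498274 for *Plcg2* and chr7:90129963-90130212 for *Picalm*, all on the + strand. Letters in capitals mark GAGGAA.
Inpp5d: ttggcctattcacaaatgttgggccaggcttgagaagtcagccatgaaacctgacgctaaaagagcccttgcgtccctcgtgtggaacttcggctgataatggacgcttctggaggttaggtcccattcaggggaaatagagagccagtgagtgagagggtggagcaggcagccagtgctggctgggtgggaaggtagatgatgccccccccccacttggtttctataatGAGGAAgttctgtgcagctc
Plcg2: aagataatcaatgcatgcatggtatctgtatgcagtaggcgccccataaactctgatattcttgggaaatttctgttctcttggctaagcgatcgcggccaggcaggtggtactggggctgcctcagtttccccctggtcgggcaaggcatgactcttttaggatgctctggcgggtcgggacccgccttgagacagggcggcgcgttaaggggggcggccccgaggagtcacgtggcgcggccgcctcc
Picalm: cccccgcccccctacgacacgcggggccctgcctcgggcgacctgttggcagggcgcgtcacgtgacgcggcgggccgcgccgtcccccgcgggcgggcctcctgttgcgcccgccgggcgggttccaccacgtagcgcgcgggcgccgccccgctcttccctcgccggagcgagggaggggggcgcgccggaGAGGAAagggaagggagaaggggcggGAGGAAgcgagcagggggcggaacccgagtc

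The *Inpp5d* sequence held GAGGAA once, with its first base at position -20 from the start, and there it was part of the longer run GAGGAAGT. The *Picalm* sequence held it at -57 and -31, and the *Plcg2* sequence did not hold it on either strand. Among the promoters of the 8 genes, those of *Inpp5d* and *Picalm* were the ones that held it. These letters are not rare. GAGGAA or its reverse complement TTCCTC was found in 23.3% of the 32851 promoters of the same length, and GAGGAAGT or ACTTCCTC, which contains it, in 2.44%. The *Inpp5d* sequence had 5 CpG dinucleotides and a GC content of 54.4%, near the medians of 6 and 52.4% over all promoters, against 17 and 59.6% for *Plcg2* and 39 and 79.2% for *Picalm*. A match describes the letters in this window and is no evidence of binding.

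*App* had its highest levels in endothelial cells and oligodendrocytes. In endothelial cells, PS19 had 1635 CPM (1790 UMIs) and PZKO 1662 CPM (2202 UMIs), a ratio of 0.024 (-0.067 to 0.11). In oligodendrocytes, the myelinating cells, it had 1682 CPM in PS19 (15630 UMIs) and 1530 CPM in PZKO (16019 UMIs), a ratio of -0.14 (-0.17 to -0.11). This ratio was below 0 under all 12 alternatives, from -0.18 after thinning to -0.022 under a stricter filter on nuclei. The order of these classes differed between the libraries. The PS19 difference between oligodendrocytes and endothelial cells was within counting error at 0.041 (-0.030 to 0.11) on the log2 scale, and in PZKO endothelial cells were higher by 0.12 (0.054 to 0.18).

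Neurons held lower levels of *App* per UMI. By count, excitatory neurons held 25600 of 58950 *App* UMIs in PS19 and 42435 of 85323 in PZKO. Endothelial cells held 3.04% and 2.58%. Excitatory neurons had 456 CPM in PS19 and 475 CPM in PZKO, a ratio of 0.060 (0.037 to 0.082), and inhibitory neurons had 607 and 568 CPM, a ratio of -0.097 (-0.15 to -0.047). When every excitatory cluster was weighted alike, the ratio in excitatory neurons was -0.0077, and in inhibitory neurons a stricter filter on nuclei turned it to 0.034. The largest ratio of *App* with an interval off 0 was in choroid plexus epithelium, which secretes cerebrospinal fluid, with 494 CPM in PS19, 654 CPM in PZKO and a ratio of 0.40 (0.27 to 0.53), which was 0.23 after thinning. Oligodendrocyte precursors (OPC) had 380 and 431 CPM, a ratio of 0.18 (0.032 to 0.33), which changed sign under 3 of 12 alternatives, at -0.21 after thinning, -0.083 without the removal of doublets and -0.038 as a mean over nuclei. Astrocytes held the lowest level of *App* in both libraries, 193 CPM in PS19 and 204 CPM in PZKO. Microglia had 325 and 340 CPM.

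*Adam10*, the main alpha-secretase, which cuts App inside the amyloid-beta sequence, was highest in microglia and endothelial cells at levels that could not be told apart in either library. Endothelial cells had 298 CPM in PS19 (326 UMIs) and 344 CPM in PZKO (456 UMIs), and microglia had 299 and 320 CPM. The PZKO ratio was 0.21 (0.00065 to 0.42) in endothelial cells and 0.10 (-0.027 to 0.23) in microglia. Under a stricter filter on nuclei the endothelial ratio was -0.10. The 2 endothelial clusters had ratios of -0.13 and 0.27, and only the latter had an interval off 0. Inhibitory neurons had 112 CPM in PS19 and 91.7 CPM in PZKO, a ratio of -0.29 (-0.41 to -0.17), and astrocytes had 110 and 99.0 CPM, a ratio of -0.16 (-0.29 to -0.029). Excitatory neurons had 91.0 and 89.3 CPM, a ratio of -0.027 (-0.078 to 0.024). They held 5113 of 11784 *Adam10* UMIs in PS19 and 7978 of 16513 in PZKO, against 2.77% and 2.76% in endothelial cells. The cluster of inhibitory neurons led by *Dlx6os1*, *Adarb2* and *Vip* had a ratio of -0.35 (-0.53 to -0.18), against -0.14 (-0.31 to 0.032) in the cluster led by *Kcnmb2* and *Nxph1*. After thinning of each nucleus to 1000 UMIs the ratio in inhibitory neurons was -0.018. Only 9.48% of PS19 and 10.4% of PZKO inhibitory nuclei kept an *Adam10* UMI then, so this ratio rests on fewer UMIs. In ependymal cells, *Adam10* was past the fold on the lower side with 111 CPM (94 UMIs) in PS19 and 78.3 CPM (60 UMIs) in PZKO, a ratio of -0.50 (-0.99 to -0.019), where 6.61% of the 3283 genes measured were past the fold on that side. A stricter filter, which keeps nuclei of up to 1% mitochondrial UMIs, reversed it to 0.38. Mitochondrially encoded genes took 2.37% of ependymal UMIs in PS19 and 1.62% in PZKO, so the filtered ratio rests on a part of the class.

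*Sorl1* encodes a sorting receptor that binds App and returns it from endosomes with the retromer. It was highest in ependymal cells, which line the ventricles, with 250 CPM in PS19 (212 UMIs) and 255 CPM in PZKO (195 UMIs). Astrocytes followed with 178 and 191 CPM, and excitatory neurons with 177 and 189 CPM. Ependymal cells held only 1.46% of all *Sorl1* UMIs in PS19 and 0.834% in PZKO. Most were in excitatory neurons, with 9948 of 14490 UMIs in PS19 and 16840 of 23389 in PZKO. Ependymal cells were above astrocytes by 0.49 (0.28 to 0.70) on the log2 scale in PS19 and by 0.41 (0.19 to 0.62) in PZKO, while astrocytes and excitatory neurons lay within 3 CPM of each other in each library. The lowest level was in OPC, at 14.8 and 15.7 CPM. The PZKO ratio was 0.025 (-0.26 to 0.31) in ependymal cells, 0.11 (0.0083 to 0.20) in astrocytes and 0.090 (0.054 to 0.13) in excitatory neurons, the last of which was 0.014 after thinning. In vascular leptomeningeal cells (VLMC) the ratio of -0.57 (-1.15 to 0.039) was past the fold, from 40 and 66 UMIs, with 9.06% of 3810 genes past it on that side, but its interval included 0.

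The ratio of *Sorl1* in excitatory neurons was not the same in every cluster. The cluster with dentate granule markers had 199 CPM in PS19 and 242 CPM in PZKO, a ratio of 0.28 (0.21 to 0.36). The clusters with CA3 and CA1 markers had ratios of 0.23 (0.11 to 0.34) and 0.16 (0.084 to 0.24). In the cluster led by *Exph5* and *Rskr*, which had no regional name, the ratio was -0.15 (-0.27 to -0.022). Whether the clusters differed was not tested.

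*Bin1* encodes an amphiphysin-like protein that senses and bends membranes. Oligodendrocytes had 851 CPM in PS19 (7908 UMIs) and 1042 CPM in PZKO (10914 UMIs), a ratio of 0.29 (0.25 to 0.33). The share of oligodendrocyte nuclei with a *Bin1* UMI was 87.2% in PS19 and 93.5% in PZKO, and 55.2% and 61.4% after thinning to 1000 UMIs per nucleus. Microglia came next with 578 and 659 CPM, a ratio of 0.19 (0.10 to 0.28). Oligodendrocytes were above microglia by 0.56 (0.49 to 0.63) in PS19 and by 0.66 (0.59 to 0.73) in PZKO on the log2 scale.

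The make-up of the oligodendrocyte class differed between the libraries, so *Bin1* and *App* were also read within its clusters. The cluster led by *Il33* held 52.6% of PS19 and 29.5% of PZKO oligodendrocytes, the cluster led by *Anln* and *Enpp6* 32.4% and 26.0%, and the cluster led by *C030029H02Rik*, *Opalin* and *St18* 14.3% and 43.2%. Both *C030029H02Rik* and *Opalin* were also among the leading genes of the *Il33* cluster. Median depths were 2724 and 2728 UMIs in the *Il33* cluster, 3843 and 4744 in the *Anln* cluster and 4378 and 4940 in the *Opalin* cluster. The part of depth in the shares of these clusters was not tested. *Bin1* was higher in PZKO in each of the *Il33*, *Anln* and *Opalin* clusters, with ratios of 0.19 (0.11 to 0.27), 0.26 (0.18 to 0.34) and 0.16 (0.088 to 0.24). It was also highest in the *Opalin* cluster, at 1029 CPM in PS19 and 1153 CPM in PZKO, and with equal weights of the clusters the ratio over the class was 0.20. *App* was lower in PZKO in the *Il33* cluster with a ratio of -0.16 (-0.22 to -0.10) and in the *Anln* cluster with -0.20 (-0.26 to -0.14), but had 1583 and 1579 CPM in the *Opalin* cluster.

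**Figure D2:**
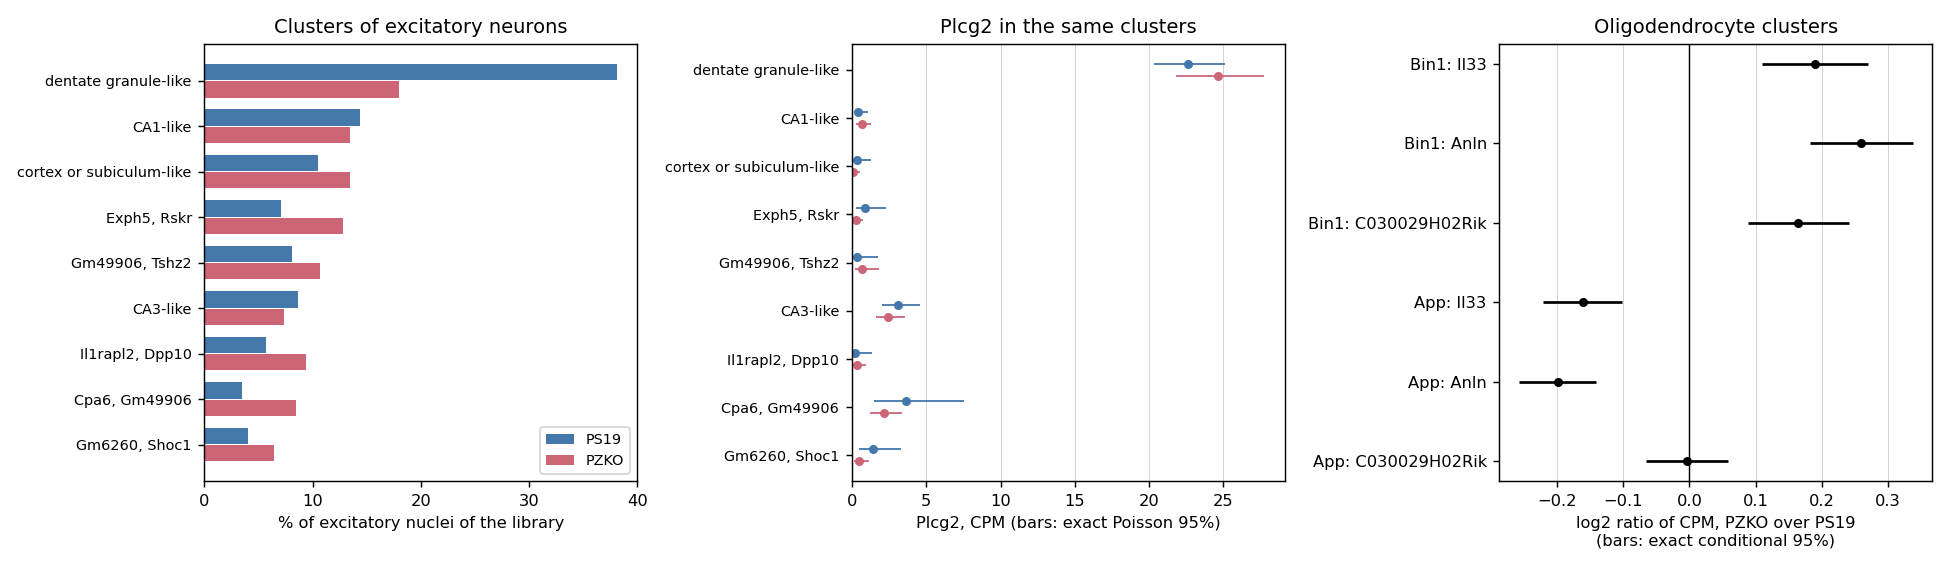
Left, share of each library's excitatory nuclei (percent) in each of 9 clusters, with PS19 in blue and PZKO in red. Middle, level of *Plcg2* (CPM, exact Poisson 95% intervals) in the same clusters, where the dentate granule-like cluster stands at 22.6 and 24.7 CPM and every other cluster at 3.65 CPM or less. Right, log2 ratio of PZKO over PS19 with exact 95% intervals for *Bin1* and *App* in the 3 oligodendrocyte clusters, each named by its leading gene, where all 3 values of *Bin1* are above 0.

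In OPC, the cells from which oligodendrocytes form, *Bin1* had 71.3 CPM in PS19 (106 UMIs) and 124 CPM in PZKO (285 UMIs). The ratio of 0.80 (0.47 to 1.13) was past the fold, as were 5.09% of the 5975 genes measured there on the higher side. The summed level of the 9 oligodendrocyte markers in the same nuclei was 641 CPM in PS19 and 1521 CPM in PZKO, and all 9 were detected in both, while the 8 OPC markers summed to 16550 and 16420 CPM. Without the removal of doublets the ratio was 0.28, and under a stricter filter on nuclei it was 0.35. The part of the oligodendrocyte transcripts in this ratio was not tested. In neurons *Bin1* was lower in level, with 121 CPM in PS19 and 131 CPM in PZKO in excitatory neurons (0.12, 0.073 to 0.16) and 118 and 132 CPM in inhibitory neurons (0.16, 0.053 to 0.27). After thinning these ratios were 0.032 and -0.076. A *Bin1* UMI was then left in 10.2% of PS19 and 9.69% of PZKO inhibitory nuclei.

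*Picalm* encodes the clathrin assembly protein of coated pits. Microglia had 727 CPM in PS19 (2371 UMIs) and 842 CPM in PZKO (2834 UMIs), a ratio of 0.21 (0.13 to 0.29). A *Picalm* UMI was found in 83.2% of PS19 and 86.4% of PZKO microglia. After thinning these shares were 46.9% (43.6% to 50.1%) and 50.9% (47.2% to 54.5%), with intervals that overlapped. Oligodendrocytes followed with 379 and 416 CPM, a ratio of 0.13 (0.068 to 0.20), which was 0.021 after thinning. Endothelial cells, pericytes and VLMC had between 291 and 304 CPM in both libraries, and their ratios had intervals that included 0. Neurons had about 90 CPM, with 91.4 and 89.3 CPM in excitatory neurons.

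*Cd2ap* encodes a scaffold that links endocytosis to actin. It was highest in endothelial cells, at 690 CPM in PS19 (755 UMIs) and 647 CPM in PZKO (857 UMIs), a ratio of -0.092 (-0.24 to 0.051). These cells held 5.57% of all *Cd2ap* UMIs in PS19 and 4.42% in PZKO. Excitatory neurons held 6438 of 13555 and 9824 of 19374. The next class, microglia, had 248 and 276 CPM, a ratio of 0.16 (0.019 to 0.29), and lay below endothelial cells by 1.48 in PS19 and by 1.23 in PZKO on the log2 scale. Excitatory neurons had a ratio of -0.060 (-0.11 to -0.014), which was 0.018 with TMM scaling and 0.025 with DESeq2 size factors. In pericytes, here a class of mural cells, the ratio of 0.64 (0.076 to 1.22) was past the fold, with 109 CPM in PS19 (40 UMIs) and 169 CPM in PZKO (84 UMIs). This class included a cluster led by *Myh11* and *Acta2*, with 13.5% of its PS19 nuclei and 19.6% of its PZKO nuclei. The part of this mix in the ratio was not tested. The background there was wide, since 11.7% of the 1778 genes measured in pericytes were past the fold on that side.

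*Inpp5d* encodes the inositol phosphatase SHIP1, which limits phosphoinositide signalling downstream of immune receptors. Microglia had 1795 CPM in PS19 (5850 UMIs) and 1953 CPM in PZKO (6574 UMIs), a ratio of 0.12 (0.071 to 0.17). They held 92.9% of all *Inpp5d* UMIs in PS19 and 92.7% in PZKO, although they made up 9.85% and 8.13% of nuclei. Nearly all microglial nuclei had a UMI of the gene, 96.5% at a median depth of 3313 UMIs in PS19 and 98.0% at 4171 UMIs in PZKO. In oligodendrocytes, a class not known for the gene, the share was 0.504% at a median depth of 3333 UMIs and 0.488% at 4248.5 UMIs.

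*Plcg2* encodes a phospholipase C that acts downstream of Trem2 in microglia. It had 313 CPM in PS19 microglia (1021 UMIs) and 359 CPM in PZKO microglia (1207 UMIs), a ratio of 0.19 (0.073 to 0.32). Microglia held 64.2% and 65.1% of its UMIs, a smaller share than for *Inpp5d*. The share of microglial nuclei with a UMI was 61.2% in PS19 and 74.1% in PZKO, against 0.155% and 0.222% of oligodendrocytes. After thinning the microglial share was 25.7% (22.9% to 28.6%) and 29.8% (26.6% to 33.2%), with intervals that overlapped.

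*Abi3* encodes an adaptor of the WAVE complex, which starts branched actin filaments. Microglia had 219 CPM in PS19 (713 UMIs) and 263 CPM in PZKO (885 UMIs), a ratio of 0.27 (0.12 to 0.41), and held 90.6% and 91.8% of its UMIs. The share of microglial nuclei with a UMI was 46.6% and 61.8%, against 0.310% and 0.266% of oligodendrocytes. After thinning the microglial share was 18.4% (16.0% to 21.1%) and 21.3% (18.5% to 24.4%), with intervals that overlapped. No UMI was seen in pericytes, ependymal cells or choroid plexus of either library. The limit that a count of 0 allows (3 nuclei) was 2.70% and 2.17% of pericytes, 2.19% and 2.80% of ependymal cells and 1.15% and 3.12% of choroid plexus nuclei in PS19 and PZKO. It limits nuclei with a UMI and not nuclei that express the gene. The *Abi3* locus overlaps *Zfp652*, *Phospho1* and *Gngt2* on the opposite strand in GENCODE M21. In the overlapping stretches its UMIs could be told from theirs only by strand, and a strand setting is not given in the sources used here. *App*, *Sorl1* and *Bin1* also overlap genes on the opposite strand, and the other 6 genes overlap none in the table.

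All 10 genes had at least 100 UMIs in microglia, and 0 of the 10 were past the fold in either direction, where 3.31% of the 8495 genes measured were past it on the higher side and 6.16% on the lower side. The interval lay above 0 for 6 of the 10 (*Bin1*, *Picalm*, *Cd2ap*, *Inpp5d*, *Plcg2* and *Abi3*) and below 0 for 0, against 12.4% and 13.6% of the genes measured. Their median ratio was 0.14, while that of all genes measured was -0.017. The width of an interval depends on the UMIs of a gene, so genes of higher level pass this criterion at smaller ratios. *Sorl1*, with 125 and 123 CPM, and *Abca7*, with 22.1 and 22.6 CPM, had the ratios nearest to 0.

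**Figure D3:**
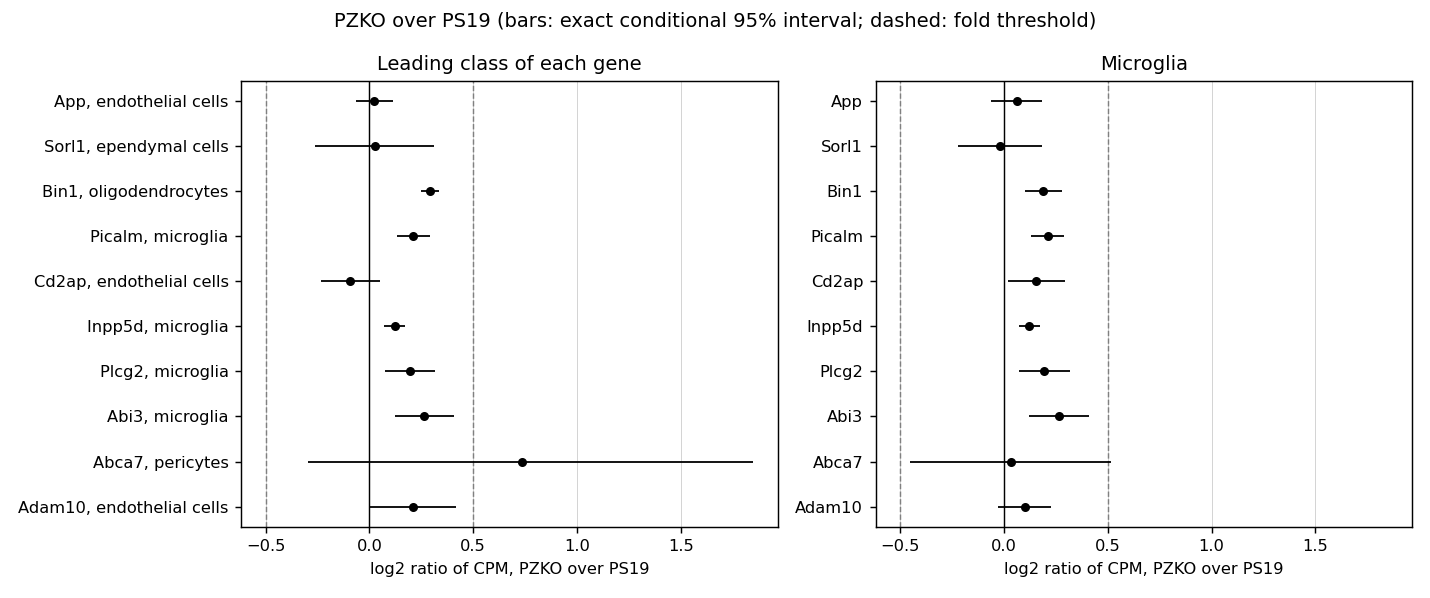
Log2 ratio of CPM, PZKO over PS19, with exact conditional 95% intervals, for each gene in its leading class (left) and in microglia (right); dashed lines mark the fold threshold of 0.5. In microglia all 10 points lie between -0.018 and 0.27, and on the left *Abca7* in pericytes has the widest interval.

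Other values in microglia also differed between the libraries. The summed level of the 8 choroid plexus markers, among them the very abundant *Ttr*, was 821 CPM in PS19 microglia and 109 CPM in PZKO microglia. This difference was not particular to microglia. The same markers had 852 and 96.6 CPM in oligodendrocytes, 429 and 61.3 CPM in astrocytes and 938 and 130 CPM in endothelial cells. The mitochondrially encoded genes took 0.881% of microglial UMIs in PS19 and 0.611% in PZKO. All 43 ribosomal protein genes were measured, and their median ratio was -0.46. Of these, 0 were past the fold on the higher side and 15 on the lower, against 3.31% and 6.16% of all genes measured. The 8 nuclear long noncoding RNAs measured had a median ratio of 0.36. An estimate from the genes of other classes put 28.2% of microglial UMIs in PS19 and 25.1% in PZKO down to ambient RNA, and subtraction of it left the sign of all 4 ratios of *Picalm*, *Inpp5d*, *Plcg2* and *Abi3*. The part of free RNA and RNA composition in the size of these ratios was not tested.

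Sums over all nuclei gave the opposite sign for the genes concentrated in microglia. *Inpp5d* had 62.5 CPM in PS19 and 46.7 CPM in PZKO over all nuclei, a ratio of -0.42 (-0.47 to -0.37). *Plcg2* had 15.8 and 12.2 CPM, a ratio of -0.37 (-0.47 to -0.27), and *Abi3* 7.81 and 6.34 CPM, a ratio of -0.30 (-0.44 to -0.16). Microglia contributed 3.24% of the UMIs kept in PS19 and 2.21% in PZKO, and made up 9.85% and 8.13% of the nuclei. Their median depth was 3313 UMIs in PS19 and 4171 in PZKO, while that of excitatory neurons, the class with the most UMIs, was 18675.5 and 28125.5. For the other 7 genes the ratio over all nuclei lay between -0.11 for *Adam10* and 0.097 for *Sorl1*.

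Outside microglia, endothelial cells were the class with the next level of all 3 genes. *Inpp5d* had 108 CPM in PS19 (118 UMIs) and 106 CPM in PZKO (141 UMIs), *Plcg2* 48.4 and 51.3 CPM, and *Abi3* 25.6 and 21.1 CPM. The 9 microglial markers were detected in endothelial nuclei too, at a summed 204 CPM in PS19 and 108 CPM in PZKO. For every 100 UMIs of these markers, endothelial nuclei held 52.9 UMIs of *Inpp5d* in PS19 and 98.6 in PZKO, while microglia held 24.0 and 26.0. For *Plcg2* these numbers were 23.8 and 47.6 in endothelial nuclei against 4.19 and 4.78 in microglia, and for *Abi3* 12.6 and 19.6 against 2.93 and 3.50. These values were higher in endothelial nuclei than in microglia for all 3 genes in both libraries. Ambient RNA was estimated at 34.7% of endothelial UMIs in PS19 and 32.4% in PZKO. The source of the endothelial UMIs of the 3 genes was not tested.

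*Plcg2* was uneven within the endothelial class. The small cluster led by *Bmx*, *Eln* and *Ptprb* (57 PS19 and 62 PZKO nuclei) had 263 CPM in PS19 (38 UMIs) and 292 CPM in PZKO (52 UMIs). The large cluster led by *Slco1a4* and *Flt1* had 15.8 and 14.0 CPM. In the *Bmx* cluster, 20 of the PS19 nuclei and 28 of the PZKO nuclei had a *Plcg2* UMI, 35.1% and 45.2%. *Inpp5d* there had 125 and 224 CPM from 18 and 40 UMIs, a ratio of 0.85 (0.011 to 1.74), against 105 and 88.1 CPM in the *Slco1a4* cluster. *Abi3* had 55.4 and 50.5 CPM against 21.0 and 16.6 CPM. The microglial markers had 17 and 34 UMIs in the *Bmx* cluster, below the counts of *Plcg2* itself. The source of the *Plcg2* UMIs there was not tested.

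**Figure D4:**
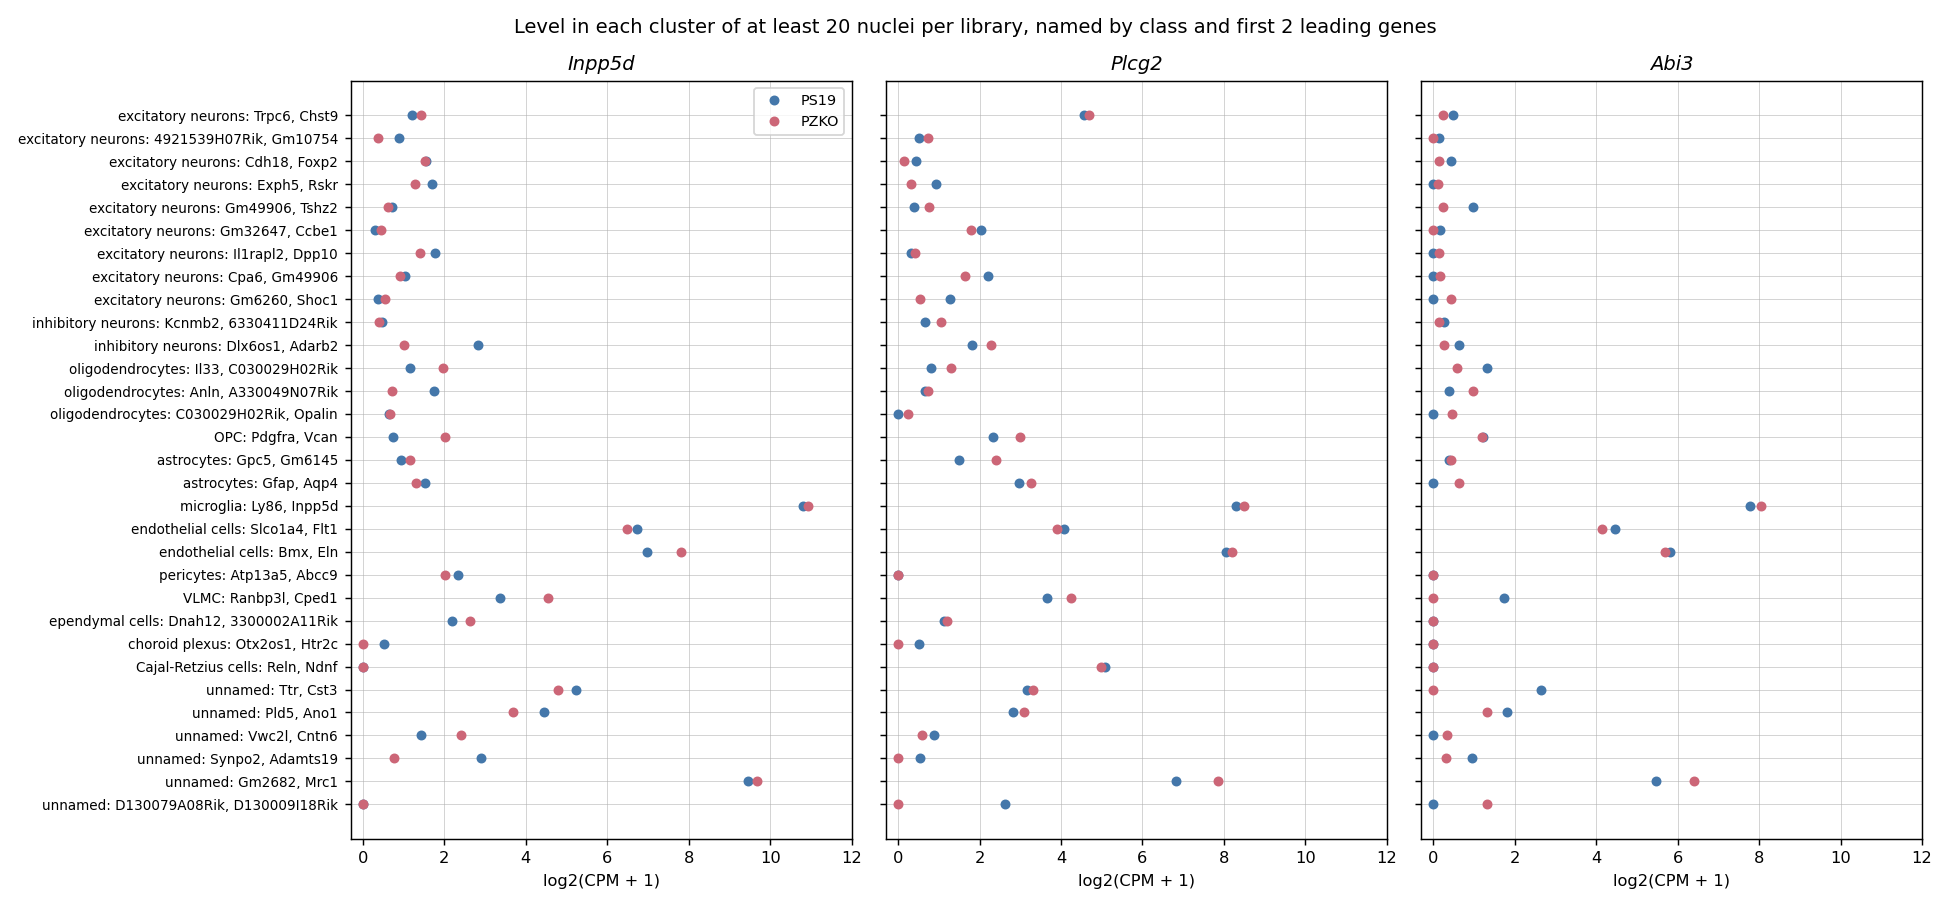
Level of *Inpp5d*, *Plcg2* and *Abi3* as log2(CPM + 1) in every cluster with at least 20 nuclei per library (rows, named by class and leading genes), with PS19 in blue and PZKO in red. All 3 are highest in microglia, and *Plcg2* also stands out in the endothelial cluster led by *Bmx* (263 and 292 CPM) and among neurons in the dentate granule-like cluster led by *Trpc6* (22.6 and 24.7 CPM).

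A further cluster, led by *Gm2682*, *Mrc1* and *F13a1*, held markers of macrophages and of T cells and was left unnamed (61 PS19 and 54 PZKO nuclei). *Inpp5d* had 698 CPM in PS19 and 812 CPM in PZKO there, and *Plcg2* 112 and 229 CPM, a ratio of 1.03 (0.16 to 1.95). The median depth was 2200 UMIs in PS19 and 2522 in PZKO. The *Plcg2* ratio rests on few UMIs, as its wide interval shows. As the cluster was unnamed, its values do not count among the pairs measured. The part of the mix of macrophages and T cells in this ratio was not tested.

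Among neurons *Plcg2* was found mainly in the dentate granule-like cluster, led by *Trpc6*, *Chst9* and *C1ql3*. It had 22.6 CPM in PS19 (347 UMIs) and 24.7 CPM in PZKO (275 UMIs), a ratio of 0.12 (-0.11 to 0.36). A *Plcg2* UMI was found in 25.2% of the nuclei at a median depth of 14690 UMIs in PS19 and in 35.1% at 20600 UMIs in PZKO. The other 8 excitatory clusters had 3.65 CPM or less in both libraries. Microglial markers had 896 and 515 UMIs in the dentate granule-like nuclei, and *Inpp5d* had 20 and 19 UMIs. Microglia had 5850 and 6574 UMIs of *Inpp5d* and 1021 and 1207 of *Plcg2*. The source of the *Plcg2* UMIs in the dentate granule-like nuclei was not tested.

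Over the whole excitatory class *Plcg2* was past the fold on the lower side, with 7.07 CPM in PS19 (397 UMIs) and 3.84 CPM in PZKO (343 UMIs), a ratio of -0.88 (-1.09 to -0.67), and 7.66% of 15788 genes were past it on that side and 3.78% on the higher side. The mix of clusters differed between the libraries. The dentate granule-like cluster made up 38.1% of PS19 excitatory nuclei and 17.9% of PZKO excitatory nuclei. With equal weights of the clusters the ratio of *Plcg2* was 0.071. Of the 9 genes measured in excitatory neurons, *Plcg2* was the 1 past the fold, and the intervals of 3 (*App*, *Sorl1* and *Bin1*) lay above 0 and of 2 (*Plcg2* and *Cd2ap*) below 0, against 20.4% and 38.2% of all genes measured.

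In inhibitory neurons *Inpp5d* had 24 UMIs in PS19 and 8 in PZKO, a ratio of -2.28 (-3.65 to -1.08). The cluster led by *Dlx6os1* held 22 and 5 of these. With under 100 UMIs this pair does not count among those measured, and with each library clustered on its own the ratio was 0.48.

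*Abca7*, which encodes a transporter of phospholipids, was highest in pericytes and choroid plexus. In pericytes it had 32.6 CPM in PS19 (12 UMIs) and 54.2 CPM in PZKO (27 UMIs), a ratio of 0.74 (-0.29 to 1.85). In choroid plexus it had 38.6 CPM (89 UMIs) and 37.4 CPM (47 UMIs). These classes could not be told apart in either library, with a log2 difference of 0.24 (-0.63 to 1.25) in PS19, where choroid plexus was higher, and of 0.53 (-0.21 to 1.25) in PZKO, where pericytes were. After thinning, the ratio in pericytes was -0.28. As given for *Cd2ap*, the pericyte class included a cluster led by *Myh11* and *Acta2*, whose share differed between the libraries. Ambient RNA was estimated at 36.2% of pericyte UMIs in PS19 and 43.7% in PZKO. Excitatory neurons held 622 of its 1362 UMIs in PS19 and 1082 of 2142 in PZKO, at 11.1 and 12.1 CPM. In astrocytes *Abca7* was past the fold at 0.505 (-0.10 to 1.14) from 35 and 68 UMIs, where 2.09% of 11834 genes were, and its interval included 0.

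In oligodendrocytes, 7 of the 10 genes were measured and 0 were past the fold, against 2.15% of 10735 genes on the higher side and 7.59% on the lower. The interval lay above 0 for *Bin1* and *Picalm* and below 0 for *App*, against 15.3% and 20.9%. In endothelial cells, 7 were measured, 0 were past the fold, against 4.26% and 3.89% of 5018 genes, and the interval lay above 0 for *Adam10* alone and below 0 for 0, against 9.27% and 7.51%. Of 7 measured in inhibitory neurons 0 were past the fold, against 1.75% and 6.85% of genes, and the interval lay above 0 for *Bin1* and below 0 for *App* and *Adam10*, against 13.5% and 20%. Astrocytes had 8 measured, with the interval above 0 for *Sorl1* and below 0 for *Adam10*, against 14.2% and 23.2%.

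The smaller classes measured fewer of the genes. In choroid plexus 6 were measured, 0 were past the fold, against 2.83% and 7.28% of genes, and the interval lay above 0 for *App*, against 9.69%. In OPC 5 were measured, with 1 past the fold on the higher side and 0 on the lower, against 5.09% and 8.02%, and the intervals of *App* and *Bin1* lay above 0, against 10.6%. In ependymal cells 5 were measured, with 0 and 1 past the fold, against 5.48% and 6.61%, and the interval of *Adam10* lay below 0, against 8.5%. In VLMC 5 were measured, with 0 and 1 past the fold, against 9.95% and 9.06%. In pericytes 4 were measured, with 1 and 0 past the fold, against 11.7% and 9.28%, and the interval of *Cd2ap* lay above 0, against 16.9%. For *Abca7* in astrocytes, the 1 gene past the fold there, the share on the lower side was 8.89%.

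Microglia were divided further, and the levels of several of the 10 genes differed between sub-clusters in both libraries. The sub-cluster led by *Gpnmb*, *Myof* and *Atp6v0d2* (219 PS19 and 135 PZKO nuclei) had the highest summed disease-associated markers of the sub-clusters with over 20 nuclei per library, at 2939 CPM, and that led by *Bank1* (131 and 172 nuclei) the highest homeostatic markers, at 5053 CPM. In the *Gpnmb* sub-cluster, *Abi3* was lower than in the *Bank1* sub-cluster by a log2 difference of -1.10 (-1.48 to -0.71) in PS19 and of -0.80 (-1.14 to -0.47) in PZKO. *Bin1* gave -0.98 and -0.84, *Inpp5d* -0.64 and -0.84, *Adam10* -0.56 and -0.62, *Cd2ap* -0.62 and -0.36 and *Picalm* -0.34 and -0.67, all with intervals below 0. *Plcg2* gave -0.17 (-0.49 to 0.16) and -0.40 (-0.68 to -0.12). *Sorl1* went the other way, with 0.50 (-0.028 to 1.05) in PS19 and 1.01 (0.51 to 1.53) in PZKO. For *App* and *Abca7* both intervals included 0. These are descriptions of clusters built from the same nuclei, though without the 10 genes, and no test was made.

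**Figure D5:**
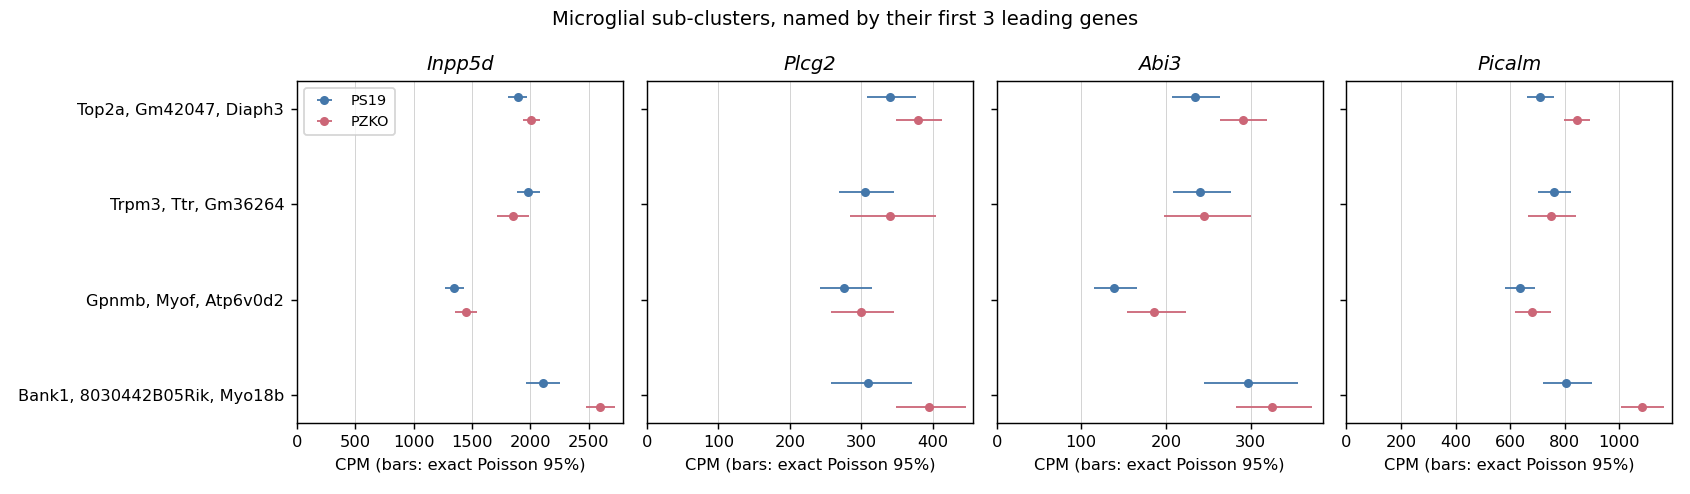
Level of *Inpp5d*, *Plcg2*, *Abi3* and *Picalm* (CPM, with exact Poisson 95% intervals) in the 4 microglial sub-clusters with over 20 nuclei per library, named by their leading genes, with PS19 in blue and PZKO in red. *Inpp5d* is lowest in the *Gpnmb* sub-cluster (1347 and 1446 CPM) and highest in the *Bank1* sub-cluster (2104 and 2595 CPM).

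The shares of the sub-clusters differed between the libraries. The *Gpnmb* sub-cluster held 23.2% of PS19 and 17.8% of PZKO microglia and the *Bank1* sub-cluster 13.9% and 22.7%. The sub-cluster led by *Trpm3* and *Ttr*, genes of choroid plexus, held 33.0% and 18.1%, at median depths of 2548.5 and 2607 UMIs. Within sub-clusters the PZKO ratio of *Inpp5d* was 0.30 (0.18 to 0.42) in the *Bank1* sub-cluster, from 2104 CPM in PS19 and 2595 CPM in PZKO. It was 0.10 (-0.026 to 0.23) in the *Gpnmb* sub-cluster, 0.088 (0.0070 to 0.17) in that led by *Top2a* and -0.10 (-0.23 to 0.029) in that led by *Trpm3* and *Ttr*. *Picalm* gave 0.43 (0.23 to 0.62) in the *Bank1* sub-cluster, 0.25 (0.12 to 0.38) in the *Top2a* sub-cluster and 0.099 (-0.089 to 0.29) in the *Gpnmb* sub-cluster. *Plcg2* gave 0.35 (0.031 to 0.67), 0.16 (-0.033 to 0.35) and 0.11 (-0.17 to 0.40) in the same order, and *Abi3* gave 0.13 (-0.20 to 0.47), 0.31 (0.087 to 0.54) and 0.43 (0.042 to 0.81). In the sub-cluster led by *Trpm3* and *Ttr* the intervals of these genes included 0, with ratios of -0.020 for *Picalm*, 0.15 for *Plcg2* and 0.025 for *Abi3*. In the sub-cluster led by *Trpm3* and *Ttr* the intervals of all 4 genes included 0.

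Genes that act with the 10 in the same processes were read from lists. In microglia, 17 of 18 genes of Trem2 and phospholipase C signalling were measured. Of these, 0 were past the fold, against 3.31% of all genes measured on the higher side and 6.16% on the lower. The interval lay above 0 for 8 and below 0 for 2, against 12.4% and 13.6% of all genes measured, with a median of 0.096 beside -0.017. The lowest were *Tyrobp*, the signalling adaptor of Trem2, at -0.37 (165 and 128 CPM) and *Trem2* itself at -0.26 (310 and 258 CPM). The highest were *Plcg1* at 0.47 (33.4 and 46.3 CPM) and *Rasgrp3* at 0.27 (521 and 627 CPM). The receptor and its adaptor thus lay on the other side of 0 from *Plcg2* and *Inpp5d*.

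The other lists had medians nearer to 0 in microglia, with the exception of amyloid precursor processing. Of 12 genes of that list measured, 1 was past the fold, *Psenen*, the gamma-secretase subunit, at -0.51 (43.3 and 30.3 CPM), followed by *Itm2b* at -0.46 (662 and 482 CPM), and the median was -0.21. Of 14 WAVE complex genes measured, 1 was past the fold (*Wasf1*, -0.55), while *Wasf2* at 0.23 and *Capzb* at 0.19 were highest. Of 21 genes of clathrin-mediated endocytosis, 1 was past the fold (*Cltb*, -0.54), next came *Sh3gl1* at -0.47, and *Dnm3* at 0.39 and *Epn2* at 0.21 were highest. Of 13 retromer and sorting genes 0 were past the fold, and of 6 ABC lipid transporters 1 was, *Abca5* with 33 and 68 UMIs at 0.997. Over all 8495 genes measured in microglia, 3.31% were past the fold on the higher side and 6.16% on the lower.

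The list of further counterparts of risk loci shares some genes with other lists, among them *Trem2*, *Abca1* and *Snx1*. In microglia 30 of 40 were measured, 0 were past the fold on the higher side and 7 on the lower (*Apoe*, *Clu*, *Grn*, *Ctsb*, *Sharpin*, *Kat8* and *Ms4a6d*), against 3.31% and 6.16% of all genes measured. The median ratio of this list was -0.028, beside -0.017 over all genes measured. *Apoe*, the lipid carrier with the strongest common risk allele, had 3291 CPM in PS19 (10726 UMIs) and 1320 CPM in PZKO (4443 UMIs), a ratio of -1.32 (-1.37 to -1.27). *Clu*, another apolipoprotein, had 471 and 283 CPM, a ratio of -0.73. Both were also lower in PZKO in oligodendrocytes (-0.85 and -0.92), endothelial cells (-0.42 and -0.78) and ependymal cells (-1.23 and -1.09), and the part of free RNA in them was not tested. In no class where it was measured did any of the 10 genes have a ratio as far from 0 as that of *Apoe* in microglia.

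In oligodendrocytes, 4 of 15 genes of amyloid precursor processing were past the fold on the lower side and 0 on the higher: *Psenen* (-0.79), *Itm2b* (-0.66), *Aplp1*, a paralog of *App* (-0.57), and *Itm2c* (-0.54). Among all genes measured there, 7.59% were past it on the lower side and 2.15% on the higher. The median of this list was -0.18, beside -0.037 over all genes measured in the class. Of 24 genes of clathrin-mediated endocytosis 0 were past the fold, with intervals above 0 for 6, among them *Sh3gl3* (0.35) and *Amph* (0.26), and below 0 for 10, among them *Clta* (-0.35) and *Ap2m1* (-0.32), against 15.3% and 20.9% of all genes. The ribosomal protein genes had a median of -0.50 in the same nuclei and the nuclear long noncoding RNAs of 0.40. Endothelial cells were the class with the highest *Cd2ap*, and their *App* level was near that of oligodendrocytes. In these cells, 0 of 9 genes of amyloid precursor processing were past the fold, with a median of 0.020 beside 0.014 over all genes. The ribosomal protein genes had a median of 0.034 there. Of 9 retromer and sorting genes there, *Snx5* (-0.85) and *Vps29* (-0.59) were past the fold, and of 19 clathrin genes *Ap2m1* (-0.58). Over all 5018 genes measured in endothelial cells, 4.26% were past the fold on the higher side and 3.89% on the lower.

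The genes with the most similar pattern over the 22 sums of class and library, by Pearson correlation of log2(CPM + 1), are given as a description. The 2 sums of a class share its markers and its contamination, and the 11 sums of a library share its depth. *Inpp5d* was nearest to *Naip5* (0.96), *Plaur* (0.96) and *Naip2* (0.955), and *Abi3* to *Naip5* (0.98), *Naip2* (0.98) and *Plaur* (0.97). *Plcg2* was nearest to *Plaur* (0.94), *Tnfaip3* (0.93) and *Zfp69* (0.93). *Picalm* had *Dennd6a* (0.95), *Herc4* (0.94) and *Mbnl1* (0.93), and *Bin1* had *Snx30* (0.92), *Rab40c* (0.90) and *Shcbp1l* (0.89). *Cd2ap* was nearest to *Bnip2* (0.94), *Bmpr2* (0.93) and *Col4a3bp* (0.93), *Adam10* to *Git2* (0.92), *Vps4b* (0.92) and *Crybg3* (0.91), and *App* to *Klhl4* (0.97), *Hs3st1* (0.89) and *Vbp1* (0.88). *Abca7* (*Cnot3*, 0.87) and *Sorl1* (*Mrps9*, 0.82) had no gene above 0.87.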

How the data were processed

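Nuclei of hippocampus were profiled with 10x Genomics 3′ chemistry. The authors deposited UMI counts per gene and nucleus as whole numbers on mm10, without normalization. The matrix headers name Cell Ranger 8.0.1, whereas the submitters' processing notes give 7.0.1 and Seurat. The libraries share 47 cell barcodes.

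Nuclei under 600 UMIs or 300 genes, or with over 5% mitochondrial UMIs, were removed. The highest Scrublet scores were removed at 0.8% per 1000 nuclei (876 PS19 and 821 PZKO nuclei). With scanpy 1.11.5 and leidenalg 0.10.2, nuclei were clustered on 2000 variable genes, 30 principal components and 20 neighbours at resolution 1. The 10 genes, all list genes, *Zbp1*, sex-linked and mitochondrial genes were left out. Clusters were named from fixed markers, with at least 3 detected in at least 5% of nuclei. The score limits of 1 (0.4 for excitatory neurons) and the rule for hippocampal regions were chosen once the clusters were known. Unnamed clusters held 7.36% of PS19 and 7.31% of PZKO nuclei.

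UMIs were summed per class and library and scaled to CPM. The leading class of a gene has the highest mean CPM over both libraries. Ratios have exact conditional binomial (Clopper-Pearson), levels exact Poisson and shares exact binomial 95% intervals, and all cover counting error only. Named genes were the 10 genes, *Zbp1*, the 2 lowest and 2 highest genes of each list in each leading class and the 3 nearest genes in pattern. Other list genes past the fold, and the genes of classes that lead no gene, were named after their values were seen. The 10 genes and the lists were chosen with earlier results of these data known. Positions are from GENCODE M21. Only the ratio and its interval were tried on simulated counts, drawn as Poisson counts for microglia and oligodendrocytes. Filtering, clustering, ambient RNA and the spread between animals were not part of the simulation. The alternatives include edgeR 4.0.16 TMM scaling and DESeq2 1.42.0 size factors, used for scaling only.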

Additional observations from a re-analysis of the deposited data

Results flagged for a closer look

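*App*, *Cd2ap*, *Inpp5d*, *Plcg2* and *Adam10* each had a ratio with its whole interval on a single side of 0 in a class and on the other side in another class, among pairs of genes and classes named in the report. None of these differences between classes was tested, since each class has 1 library per genotype. *App* had -0.14 in oligodendrocytes and 0.40 in choroid plexus. *Cd2ap* had -0.060 in excitatory neurons and 0.64 in pericytes, the latter from 40 UMIs in PS19 and 84 in PZKO. The median over all genes measured in excitatory neurons was -0.075, and 38.2% of them had an interval below 0. With DESeq2 size factors the excitatory ratio of *Cd2ap* was 0.025. *Inpp5d* had -2.28 in inhibitory neurons, from 24 UMIs in PS19 and 8 in PZKO, and 0.12 in microglia. The UMIs in inhibitory neurons lay in 8 PS19 nuclei and 6 PZKO nuclei. *Plcg2* had -0.88 in excitatory neurons, where the share of the dentate granule-like cluster was 38.1% in PS19 and 17.9% in PZKO, and 0.19 in microglia. *Adam10* had -0.29 in inhibitory neurons and 0.21 in endothelial cells. The endothelial interval began at 0.00065, and the ratio was -0.10 under a stricter filter on nuclei. Thinning, which leaves fewer UMIs, gave -0.018 in inhibitory neurons.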

How the results depend on the processing

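No paired analysis was possible because each genotype has 1 library, and for the same reason no library could be left out. The ratios in microglia of *Picalm* (0.15 to 0.26), *Inpp5d* (0.076 to 0.18), *Plcg2* (0.14 to 0.25) and *Abi3* (0.18 to 0.33) kept their sign under all 14 alternatives tried, and *Bin1* in oligodendrocytes (0.20 to 0.37) under all 12. Of these alternatives, 2 for microglia were chosen after seeing the data: without the sub-cluster led by *Trpm3* and *Ttr*, which gave 0.18 for *Inpp5d*, and equal weights of the sub-clusters. *Bin1* in oligodendrocytes was 0.25 after thinning to 1000 UMIs, 0.20 with equal weights of clusters, 0.34 with TMM scaling and 0.37 with DESeq2 size factors, and its median over the clusters was 0.32 at resolution 0.5. A stricter filter (nuclei of 1000 or more UMIs, 500 or more genes and up to 1% mitochondrial UMIs) gave -0.17 for *App*, -0.34 for *Cd2ap* and -0.10 for *Adam10* in endothelial cells, and reversed *Adam10* in ependymal cells to 0.38. Mitochondrially encoded genes took 1.46% and 1.49% of endothelial UMIs and 2.37% and 1.62% of ependymal UMIs in PS19 and PZKO. These filtered ratios therefore rest on a part of each class, and the nuclei left are not given. Thinning gave -0.50 for *Sorl1* in ependymal cells and 0.43 for *Adam10* in endothelial cells, and reversed *Abca7* in pericytes to -0.28. These thinned ratios rest on fewer UMIs than the main ratios, and their counting error is not given. *Inpp5d* in inhibitory neurons reversed to 0.48 with each library clustered on its own and *Plcg2* in excitatory neurons to 0.071 with equal weights of clusters. *App* in endothelial cells over oligodendrocytes, 0.038 over both libraries, reversed to -0.057 without removal of doublets. Except for the equal weights, which change the mix of clusters by construction, the cause of these changes was not tested. TMM and DESeq2 scaling shifted all ratios of a class up by 0.0062 to 0.12. The leading class of 9 or 10 of the 10 genes stayed first under the 5 alternatives that could change it. Few UMIs limit the ratios of small classes, as for *Abca7* in pericytes, whose interval runs from -0.29 to 1.85.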
